A study of Mus musculus with 10 samples.

Results

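The genes described here encode subunits of the mitochondrial respiratory chain and ATP synthase that are carried in the nucleus. They were chosen by gene symbol alone, from the symbols of the messenger RNA table that start like those of complex I (Nduf), complex II (Sdh), complex III (Uqcr), complex IV (Cox4 to Cox8) or ATP synthase, complex V (Atp5). The rule itself uses no measured value, though it was set with earlier results of these data known. The rule took 85 of 23360 genes, of which 82 are subunits: 37 of complex I, 4 of complex II, 8 of complex III, 18 of complex IV and 15 of complex V. This sorting follows the symbols, so complex I includes Ndufa4, now known as a complex IV subunit, and its paralogue Ndufa4l2. The other 3 matched the rule but are not counted as subunits, since RefSeq now calls Cox4nb, Atp5s and Atp5sl Emc8, Dmac2l and Dmac2.

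RNA came from the heart ventricles of C57BL/6 mice at 2 weeks of age, from wild-type animals (WT) and from animals with a conditional knockout of Trbp (Trbp-cKO), with 2 libraries per genotype. Trbp, the product of Tarbp2, is a double-stranded RNA-binding protein that works with Dicer in making microRNAs. The Cre driver of the knockout, and how many animals went into a library, are not given in the sources used. A p-value here therefore covers no more than the spread among these 4 libraries. The study also holds small RNA libraries of another age, which are not used here.

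The respiratory chain takes electrons from NADH at complex I and from succinate at complex II, passes them through ubiquinone, complex III and cytochrome c to complex IV, and uses the proton gradient built on the way to make ATP at complex V. The heart depends on it more than most tissues. Complex IV, cytochrome c oxidase, has a core encoded by mitochondrial DNA and an outer layer of nuclear-encoded subunits, and several of the latter exist as a pair of isoforms from separate genes. In the mouse subunits 6a, 7a and 8 have a heart and skeletal muscle isoform, Cox6a2, Cox7a1 and Cox8b. Each also has a form made in most tissues, Cox6a1, Cox7a2 and Cox8a. The muscle forms replace much of the ubiquitous forms as the heart matures after birth.

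Libraries held 10151184 to 13540495 counts over genes. Tarbp2 stood at 12.7 and 11.5 CPM (counts scaled to library size) in WT and at 3.87 and 3.89 CPM in Trbp-cKO, a log2 fold change of -1.64 ± 0.17 (SE; edgeR quasi-likelihood test, adjusted p = 0.000653). In each genotype, replicate 1 expressed the Y-linked gene Ddx3y (121.9 and 104.4 CPM) and replicate 2 expressed Xist (1209 and 1036 CPM). Ddx3y was at 0.194 and 0.299 CPM in replicate 2, and Xist at 8.22 and 5.11 CPM in replicate 1. By these genes replicate 1 was male and replicate 2 female in both genotypes, though the labels give no sex. The 2 libraries of a genotype thus came from different animals. Among cardiomyocyte markers 7 of 8 were above 1 CPM, and the atrial gene Myl7 was under 1 CPM in each library. Of 8 skeletal muscle markers, Myh1, Myh2, Myh4, Tnnt3, Mylpf and Myod1 were under 1 CPM in each library. The other 2, which the heart also expresses, were Ckm at 2638 to 2901 CPM and Acta1 at 253.5 and 451.6 CPM in WT and 78.5 and 107 CPM in Trbp-cKO. Of 6 brown fat markers, Ucp1, Elovl3, Adipoq and Plin1 were under 1 CPM in each library, while Cidea was at 33.1 to 37.6 CPM and Ppargc1a at 212.8 to 374.5 CPM.

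Most of the respiratory chain was at nearly the same mRNA level in both genotypes, and the members that rose lay in complex IV. Of the 85 members 82 passed the filter on low counts. Of these 7, or 8.54%, were called at an adjusted p under 0.05, beside 9.37% of all 13625 genes tested (edgeR quasi-likelihood test, Benjamini-Hochberg adjustment over all genes tested). The 4 that rose were Cox6a1, Cox7a2, Cox8a and Cox6a2, beside 5.17% of all genes called higher. The 3 that fell were Cox7a1, Ndufa12 and Ndufs8, beside 4.2% called lower. At an unadjusted p under 0.05 the members numbered 15, or 18.3%, where all genes gave 23.9%. The share of members called was therefore near the background, and the members called higher were all subunits of 1 complex.

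Most differences among the 82 tested members were small, and the sign of their median depended on 1 library. The log2 fold change, Trbp-cKO over WT, was within 0.2 of 0 in 66 of the 82 members, and its median was -0.06, where the median over all genes was 0.00. The members' median was -0.12 without Trbp-cKO replicate 1 and 0.02 without Trbp-cKO replicate 2. On the log2(CPM + 1) scale Trbp-cKO replicate 2 was below Trbp-cKO replicate 1 in 74 of the 82 members, or 90.2%, and in 50.5% of all genes, with a median difference of -0.13 over the members; in WT that median was 0.01. With all 4 libraries, the log2 fold change was negative in 57 members, or 69.5%, and in 50% of all genes. Both Trbp-cKO libraries lay below both WT libraries in 24 members, or 29.3%, beside 27.1% of all genes, and above them in 9 members, or 11%, beside 27.5% of all genes. The members together held 4.78% and 4.87% of the counts of the WT libraries and 4.97% and 4.54% of those of the Trbp-cKO libraries, so the genotypes overlapped in that total.

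**Figure D1:**
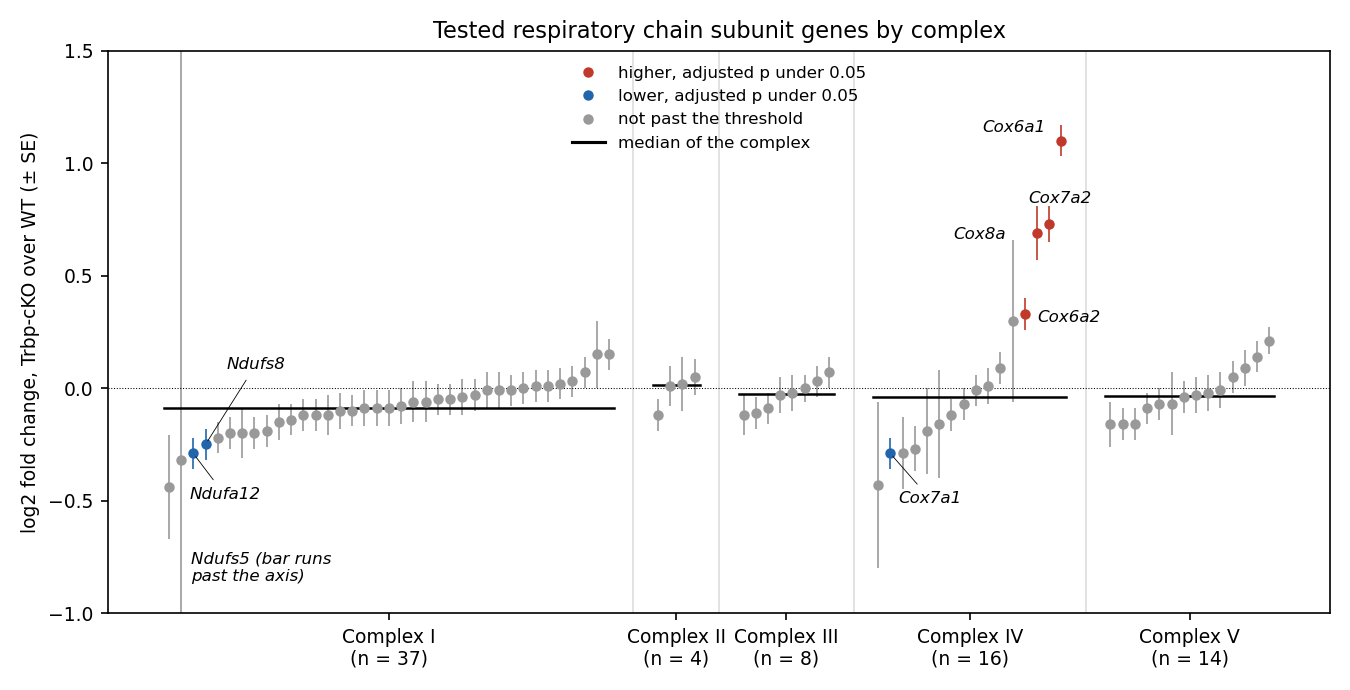
Log2 fold change, Trbp-cKO over WT, with its standard error, of each tested subunit gene, ordered within complexes I to V, with the median of each complex as a line and called genes in colour. The 4 called higher are all in complex IV, at 0.33 to 1.10, while the medians of the 5 complexes lie between -0.09 and 0.02. The error bar of Ndufs5 (SE 2.50) runs past the axis.

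Complex IV held 5 of the 7 calls, and these were 5 of the 6 isoforms of the muscle and ubiquitous pairs. Of its 18 genes 16 were tested and 31.2% of these were called, beside 9.37% of all genes, while the median log2 fold change of the complex was -0.04. With Ndufa4 counted here, 5 of 17, or 29.4%, were called. Without the 6 isoforms, 0 of 10 tested genes of complex IV were called by edgeR's quasi-likelihood test, with 1 at an unadjusted p under 0.05 (Cox5a) and 0 called by DESeq2. Over all members without the 6 isoforms, 2 of 76, or 2.63%, were called, against the same 9.37%.

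Cox6a1 (chromosome 5, 115345652 to 115348958, coordinates from RefSeq on GRCm38.p6 here and for the other genes), the ubiquitous form of subunit 6a, showed the largest change of any member. Its levels were 135.9 and 137.2 CPM in WT and 306.7 and 276.9 CPM in Trbp-cKO. The WT libraries were nearly equal, and both Trbp-cKO libraries were about double them. The rise was 2.14-fold, a log2 fold change of 1.10 ± 0.07 (edgeR quasi-likelihood test, adjusted p = 4.49e-05).

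Its muscle partner Cox6a2 (chromosome 7, 128205435 to 128206366) rose as well, but by less. It stood at 963.8 and 921.8 CPM in WT and at 1197 and 1167 CPM in Trbp-cKO, without overlap. The log2 fold change was 0.33 ± 0.07 (edgeR adjusted p = 0.0155), and the call was lost without WT replicate 1 (edgeR adjusted p = 0.156) or WT replicate 2 (0.222). The Cox6a2 span overlaps Itgad, an integrin gene that was itself at 1.58 to 3.89 CPM.

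Cox7a2 (chromosome 9, 79755241 to 79771422), the ubiquitous form of subunit 7a, was at 248.5 and 259.6 CPM in WT and at 440.5 and 401.4 CPM in Trbp-cKO. The genotypes were far apart against the gap between replicates. The rise was 1.66-fold, or 0.73 ± 0.08 on the log2 scale (edgeR adjusted p = 0.000597). Its span overlaps that of Tmem30a, a flippase subunit gene, which was at 165.3 to 168.4 CPM in all 4 libraries, and that of the predicted gene Gm51685.

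Cox7a1 (chromosome 7, 30184171 to 30186030), the muscle form of subunit 7a, moved the other way. Its levels were 348.2 and 343.2 CPM in WT and 293.1 and 271.4 CPM in Trbp-cKO, so that both Trbp-cKO libraries were lower. The log2 fold change was -0.29 ± 0.07 (edgeR adjusted p = 0.0332). The call was lost without WT replicate 1 (edgeR adjusted p = 0.241), WT replicate 2 (0.213) or Trbp-cKO replicate 2 (0.0697), each time with the same direction.

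Cox8a (chromosome 19, 7215158 to 7217616), the ubiquitous form of subunit 8, was at 139.3 and 178.6 CPM in WT and at 262.0 and 249.2 CPM in Trbp-cKO. WT replicate 2 stood closer to the Trbp-cKO libraries than WT replicate 1 did, but the genotypes did not overlap. The rise was 1.61-fold, or 0.69 ± 0.12 on the log2 scale (edgeR adjusted p = 0.0172). It was no longer called without WT replicate 1 (0.52, edgeR adjusted p = 0.0606), Trbp-cKO replicate 1 (0.65, 0.230) or Trbp-cKO replicate 2 (0.72, 0.185).

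Cox8b (chromosome 7, 140898942 to 140900446), the muscle form of subunit 8, was at 560.6 and 568.7 CPM in WT and at 577.3 and 542.8 CPM in Trbp-cKO. The genotypes overlapped. Its log2 fold change was -0.01 ± 0.07 (edgeR adjusted p = 0.947).

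**Figure D2:**
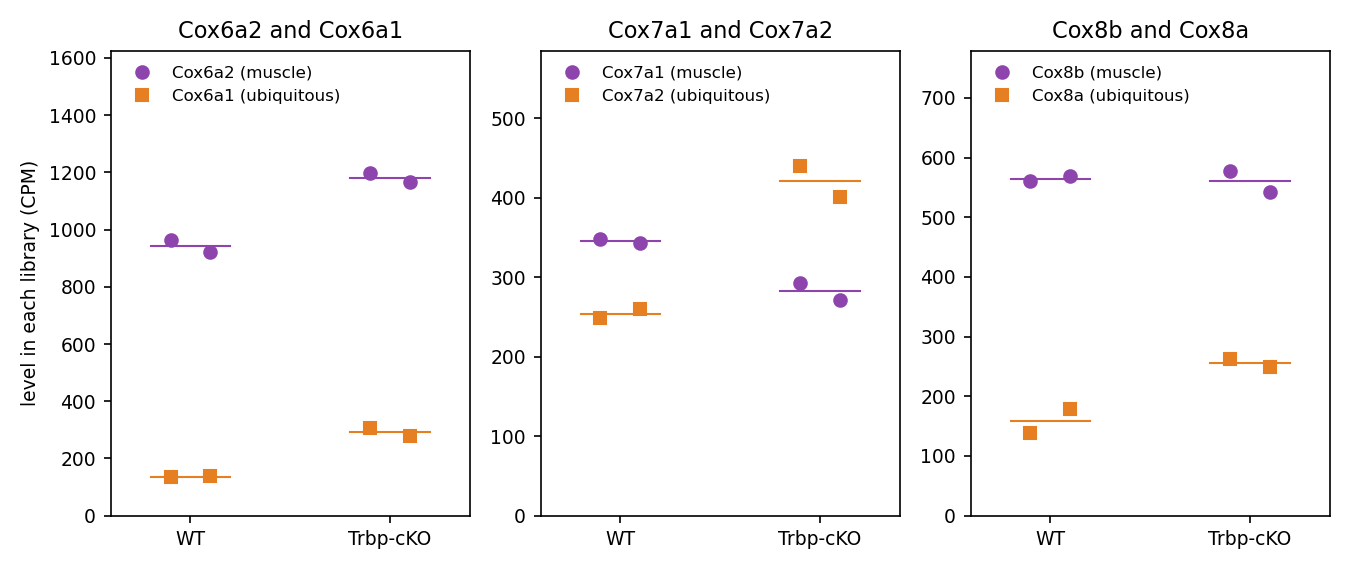
Level in CPM (linear axis from 0) of the muscle form (circles) and the ubiquitous form (squares) of subunits 6a, 7a and 8 in each of the 2 WT and 2 Trbp-cKO libraries, with the mean of each genotype as a line. The ubiquitous form is higher in both Trbp-cKO libraries in all 3 panels, for example 306.7 and 276.9 CPM against 135.9 and 137.2 CPM for Cox6a1.

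The authors' deposited table gives each transcript a q-value and a ratio, with Trbp-cKO as numerator, computed by them from the same libraries. Their list of differential transcripts took 746 of 30635 rows, or 2.44%, and 3 members were in it: Cox6a1, Cox7a2 and Cox8a. In the authors' deposited table these had ratios of 2.13, 1.65 and 1.60. Cox6a2 and Cox7a1, with ratios of 1.25 and 0.813 in the authors' deposited table, were outside the list. DESeq2, as another test of the same counts, called 5.17% of the 14280 genes it gave an adjusted p, among them Cox6a1, Cox6a2, Cox7a1, Cox7a2 and Cox8a, and neither complex I gene.

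The proportion of the muscle form within each pair was lower in both Trbp-cKO libraries for all 3 subunits. A ratio of the counts of both genes in a library was used, which does not depend on the scaling of the libraries. Transcript lengths were not used, so a ratio is one of counts and not of molecules. For Cox6a2 over Cox6a1 the ratio was 7.09 and 6.72 in WT and 3.91 and 4.22 in Trbp-cKO. For Cox7a1 over Cox7a2 it was 1.40 and 1.32 in WT and 0.665 and 0.676 in Trbp-cKO. This pair crossed from more counts of the muscle form to more counts of the ubiquitous form. For Cox8b over Cox8a it was 4.03 and 3.18 in WT and 2.20 and 2.18 in Trbp-cKO.

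On the log2 scale the ratio differed between genotypes, Trbp-cKO minus WT, by -0.77 for subunit 6a, -1.02 for subunit 7a and -0.71 for subunit 8. The ratio thus dropped 1.70-fold, 2.03-fold and 1.63-fold. The SD of the log2 ratio within a genotype was at most 0.24, in WT for subunit 8. An exact two-sided permutation test over the libraries gave p = 0.333 for each of these 3 pairs, the smallest value that 2 libraries against 2 allow, and 0.5 after adjustment over the 6 pairs compared. No pair could therefore pass this test.

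**Figure D3:**
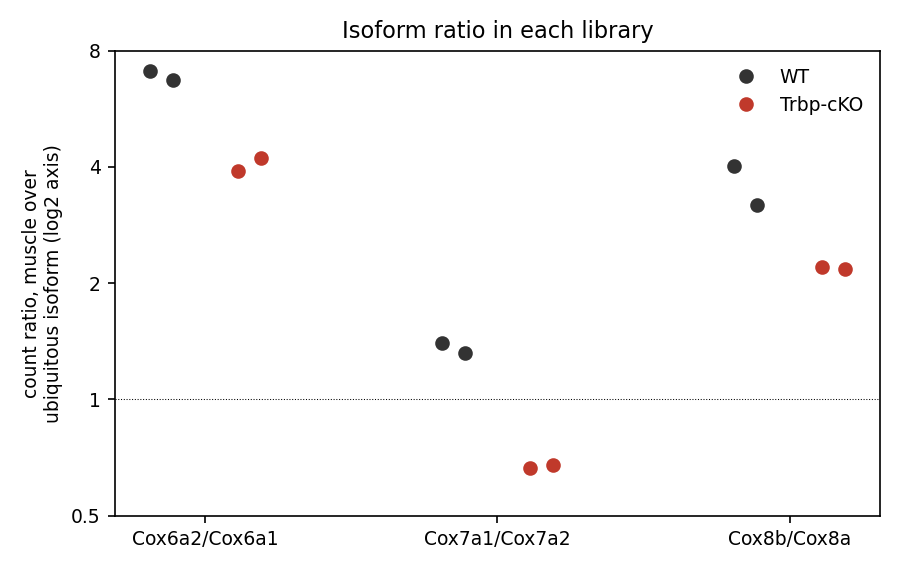
Ratio of the counts of the muscle isoform to those of the ubiquitous isoform in each library (log2 axis), for WT (dark) and Trbp-cKO (red). Both Trbp-cKO points lie below both WT points for each pair, and for Cox7a1 over Cox7a2 they lie below 1, at 0.665 and 0.676.

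The summed level of each pair was higher in both Trbp-cKO libraries than in both WT libraries. It was 1100 and 1059 CPM in WT and 1504 and 1444 CPM in Trbp-cKO for Cox6a2 with Cox6a1. For Cox7a1 with Cox7a2 it was 596.7 and 602.7 CPM against 733.6 and 672.8 CPM. For Cox8b with Cox8a it was 699.9 and 747.3 CPM against 839.3 and 792.1 CPM. The log2 ratio of the genotype means of these sums was 0.45, 0.23 and 0.17. In a mixed tissue such as ventricle, fewer cells of a type and less RNA per cell cannot be told apart.

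Markers of cardiomyocytes, the cells known to make the muscle forms, did not move in 1 direction. They came to 69020 and 68280 CPM in WT and 77240 and 82050 CPM in Trbp-cKO. Of 7 tested, 5 had positive and 2 negative log2 fold changes. Myh6, Tnnt2 and Ryr2 were called higher and Myl2 lower, or 57.1%, beside 9.37% of all genes. Nppa was at 68.9 and 66.4 CPM in WT and 172.8 and 577.5 CPM in Trbp-cKO, and did not pass (edgeR adjusted p = 0.307). Without Myh6, which was at 33180 and 33040 CPM in WT and 42540 and 44260 CPM in Trbp-cKO, the sums were 35830 and 35240 CPM in WT and 34700 and 37790 CPM in Trbp-cKO and overlapped. Fibroblast markers ranged from 2571 to 2638 CPM in WT and from 2595 to 2817 CPM in Trbp-cKO. Of 8, Gsn was called higher and Col1a1 and Col1a2 lower, or 37.5%, beside 9.37% of all genes. Endothelial markers ranged from 1933 to 1964 CPM in WT and from 1988 to 2033 CPM in Trbp-cKO. Of 7, Tek was called higher, or 14.3%, beside 9.37% of all genes called in either direction. Smooth muscle and pericyte markers (1799 and 2052 CPM against 1495 and 2201 CPM, 0 of 7 called by edgeR, 1 at an unadjusted p under 0.05) overlapped between the genotypes. So did macrophage and leukocyte markers (206.9 and 238.8 CPM against 225.9 and 235.6 CPM, 0 of 8 called by edgeR, 2 at an unadjusted p under 0.05). Erythroid markers came to 928.7 and 1152 CPM in WT and 746.1 and 897.1 CPM in Trbp-cKO. Of 5 tested, 3 were called lower, beside 4.2% of all genes. The pair Hba-a1 and Hba-a2, which had identical counts, was counted once. The part of these cell types in the isoform ratios was not tested.

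The other isoform pairs of the respiratory chain gave no such common direction. Cox4i1, the main form of subunit 4, was the most abundant complex IV mRNA in CPM, at 1485 and 1564 CPM in WT and 1697 and 1539 CPM in Trbp-cKO, and its partner Cox4i2, known from lung, was at 8.05 to 11.8 CPM. The log2 ratio of Cox4i2 over Cox4i1 differed by -0.28 with overlapping genotypes (exact permutation p = 0.667). Cox6b2, the testis form of subunit 6b, was at 1.13 to 1.57 CPM, and its log2 ratio over Cox6b1 was 0.41 higher in Trbp-cKO, with 14 to 21 counts of Cox6b2 per library. Ndufa4l2, a paralogue of Ndufa4 known from hypoxic cells, was at 27.1 to 29.9 CPM, and the difference in its log2 ratio over Ndufa4 was 0.04 with overlap.

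Cox5a, a matrix-side subunit of complex IV, was at 611.9 and 741.2 CPM in WT and 585.9 and 537.4 CPM in Trbp-cKO, with no overlap. Its log2 fold change of -0.27 ± 0.10 did not pass (edgeR adjusted p = 0.145). Single libraries stood apart in 3 further genes of the complex. Cox5b, known to bind zinc, was at 98.6 and 172 CPM in WT and 104 and 95.8 CPM in Trbp-cKO. WT replicate 2 alone was high, and its log2 fold change of -0.43 ± 0.37, the lowest of complex IV, was 0.01 without that library. Cox7a2l was at 142.7 and 145.1 CPM in WT and 154.3 and 103.1 CPM in Trbp-cKO, with Trbp-cKO replicate 2 alone low. Cox7c was at 30.9 and 27.8 CPM in WT and 28.1 and 20.0 CPM in Trbp-cKO, again with Trbp-cKO replicate 2 lowest. The testis genes Cox7b2 and Cox8c were at 0 or 1 count per library and were not tested.

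Promoters of the 3 ubiquitous isoforms that rose are shown here for comparison of their sequences, since members that rose together are what the results turn on. They are the 250 bases before the start that RefSeq's promoter table gives (GRCm38.p6), all read from the minus strand, 5′ to 3′, with motif matches in capitals. The motifs searched on both strands were those of NRF1 (GCGC, any base, TGCGC), ETS factors such as GABP (CCGGAAG), estrogen-related receptors (AAGGTCA) and YY1 (AAGATGGC), known regulators of respiratory genes. The Cox6a1 stretch is chr5:115348959-115349208, that of Cox7a2 is chr9:79759854-79760103 and that of Cox8a is chr19:7217617-7217866. For Cox7a2 the start in the table lies inside the annotated span of the gene, while the other stretches end where the span begins.
Cox6a1: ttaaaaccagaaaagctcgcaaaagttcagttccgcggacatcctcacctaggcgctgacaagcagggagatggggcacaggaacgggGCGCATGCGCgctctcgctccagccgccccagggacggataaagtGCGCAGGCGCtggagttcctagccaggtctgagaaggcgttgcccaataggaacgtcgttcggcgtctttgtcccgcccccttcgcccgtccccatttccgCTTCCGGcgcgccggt
Cox7a2: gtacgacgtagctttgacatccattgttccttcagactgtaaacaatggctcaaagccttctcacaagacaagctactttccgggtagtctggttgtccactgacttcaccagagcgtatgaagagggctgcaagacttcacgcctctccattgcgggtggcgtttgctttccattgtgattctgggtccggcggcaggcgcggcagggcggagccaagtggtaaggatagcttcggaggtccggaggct
Cox8a: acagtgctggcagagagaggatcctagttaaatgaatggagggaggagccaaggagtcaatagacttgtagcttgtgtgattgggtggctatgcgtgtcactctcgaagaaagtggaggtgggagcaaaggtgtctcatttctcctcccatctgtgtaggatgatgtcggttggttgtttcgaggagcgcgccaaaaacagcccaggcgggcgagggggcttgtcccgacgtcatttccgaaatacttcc

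The Cox6a1 promoter held 2 NRF1 matches, at -162 and, in reverse, at -117 from the start, and an ETS match in reverse at -16. The Cox7a2 window held no match to the 4 motifs, and that of Cox8a held ETS matches in reverse at -5 and +32, which run past the stretch printed. The GC content of the printed stretches was 62.8%, 54.8% and 52.8%. The windows searched ran from 250 bases before the start to 50 after it. Matches past the start were therefore counted too, YY1 matches of members among them. Over the 75 windows of 300 bases found for 69 members, NRF1 was in 24%, ETS in 21.3%, estrogen-related receptor in 10.7% and YY1 in 16%, where all 32851 windows in the table gave 4.6%, 8.86%, 4.72% and 2.75%. The motif letters of the members' promoters thus were more frequent than in all promoters, and no motif was in the windows of all 3 ubiquitous isoforms. The windows compared were not matched for GC content, and its part in these shares was not tested. A match describes letters only, and its absence from a window says nothing about a factor.

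Complex I, which oxidises NADH, had the most members and 2 calls, or 5.41%, both lower, beside 9.37% of all genes called in either direction. All 37 were tested, 29 had values under 0 on the log2 scale, beside 50% of all genes, and the median was -0.09. The summed level of complex I was 11540 and 11630 CPM in WT and 11620 and 10620 CPM in Trbp-cKO. Only Trbp-cKO replicate 2 lay below both WT libraries in that sum. Both Trbp-cKO libraries were below both WT libraries in 12 of the 37, beside 27.1% of all genes, and above them in 1, Ndufv1, beside 27.5%. By symbol family, 12 of 14 Ndufa, 7 of 10 Ndufb, 1 of 2 Ndufc, 7 of 8 Ndufs and 2 of 3 Ndufv genes had negative values.

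Ndufa12 (chromosome 10, 94199035 to 94221440), an accessory subunit, was at 94.5 and 92.9 CPM in WT and 74.9 and 78.5 CPM in Trbp-cKO. Both Trbp-cKO libraries were lower, at -0.29 ± 0.07 on the log2 scale (edgeR adjusted p = 0.0282). The call was lost without WT replicate 1 (edgeR adjusted p = 0.192), WT replicate 2 (0.159) or Trbp-cKO replicate 1 (0.0872), and with DESeq2 (adjusted p = 0.178).

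Ndufs8 (chromosome 19, 3908863 to 3912774), a core subunit that carries iron-sulfur clusters, was at 199.5 and 213.7 CPM in WT and 176.0 and 170.5 CPM in Trbp-cKO. Its log2 fold change was -0.25 ± 0.07 (edgeR adjusted p = 0.0478), just under the threshold. It was not called when any 1 library was left out (edgeR adjusted p from 0.0518 to 0.327), when transcripts were summed per gene (0.0566) or with DESeq2 (adjusted p = 0.128).

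Ndufs1, the large iron-sulfur subunit that receives electrons from the flavin site, was at 978.8 and 950.9 CPM in WT and 1003 and 913.6 CPM in Trbp-cKO. The genotypes overlapped, at a log2 fold change of -0.01 ± 0.07. Ndufv1, which binds NADH, was at 824.4 and 809.4 CPM in WT and 916.6 and 890.3 CPM in Trbp-cKO, and its log2 fold change of 0.15 ± 0.07 did not pass (edgeR adjusted p = 0.214).

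The extremes of complex I rested on single libraries or low counts. Ndufb2 had the lowest log2 fold change, -0.44 ± 0.23, from 109 and 160.8 CPM in WT and 102.1 and 96.7 CPM in Trbp-cKO. As with Cox5b, WT replicate 2 alone was high. Ndufb4 had the highest, 0.15 ± 0.15, at 12.7 to 16.2 CPM, and it was -0.02 without WT replicate 1.

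Ndufs5 was split by replicate number rather than by genotype. It had 377 and 305 counts in replicate 1 of WT and Trbp-cKO and 7 counts in each replicate 2, while its annotated pseudogene Ndufs5-ps had 1291 and 1289 counts in replicate 1 and 1392 and 1557 in replicate 2. How reads that match both were assigned is not stated by the labels or files, so the level of Ndufs5 is uncertain. The difference between replicates followed the same libraries as Ddx3y and Xist, and their part in it was not tested.

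Complex II, succinate dehydrogenase, which also belongs to the citric acid cycle, had 4 subunits and no call (0 of 4 by edgeR, 0 at an unadjusted p under 0.05, 0 by DESeq2). Sdha, the flavoprotein, was at 1814 and 1804 CPM in WT and 2068 and 1612 CPM in Trbp-cKO. The Trbp-cKO libraries lay on either side of the WT libraries. Sdhb, the iron-sulfur subunit, was at 691.1 and 668.2 CPM and at 742.0 and 623.6 CPM, with the same arrangement. The membrane anchor Sdhc was at 522.4 and 519.5 CPM and at 569.9 and 511.3 CPM, and had the highest log2 fold change of the 4, 0.05 ± 0.08. The other anchor, Sdhd, was at 678.9 and 668.9 CPM and at 653.9 and 589.9 CPM, with both Trbp-cKO libraries below WT, at -0.12 ± 0.07 on the log2 scale (edgeR adjusted p = 0.386).

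Complex III, which hands electrons from ubiquinol to cytochrome c, gave 0 calls among 8 subunits by edgeR, 0 at an unadjusted p under 0.05 and 0 by DESeq2, with a median log2 fold change of -0.03. Uqcrc1, a core protein and the most abundant of them in CPM, was at 1347 and 1340 CPM in WT and 1441 and 1299 CPM in Trbp-cKO. Uqcrfs1, the Rieske iron-sulfur protein, had the lowest log2 fold change, -0.12 ± 0.09, from 1087 and 1141 CPM in WT and 1104 and 940.0 CPM in Trbp-cKO. Uqcrh, the hinge protein, had the highest, 0.07 ± 0.07, from 496.6 and 515.0 CPM in WT and 528.7 and 533.9 CPM in Trbp-cKO, without overlap.

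ATP synthase held the most abundant mRNAs of the respiratory chain in CPM. Of its 15 genes 14 were tested and 0 called by edgeR, with 3 at an unadjusted p under 0.05 and 0 by DESeq2. Atp5b, the catalytic beta subunit, was at 7420 and 7542 CPM in WT and 9009 and 8244 CPM in Trbp-cKO. Both Trbp-cKO libraries were higher, by a log2 fold change of 0.21 ± 0.06, which did not pass (edgeR adjusted p = 0.0776). Atp5b was called higher when no filter on low counts was used (edgeR adjusted p = 0.0480). Its log2 fold change was 0.14 without Trbp-cKO replicate 1 and 0.27 without Trbp-cKO replicate 2. Atp5a1, the alpha subunit, was at 6012 and 6060 CPM in WT and at 6170 and 5536 CPM in Trbp-cKO, with overlap. Atp5k, a membrane subunit, was at 171.7 and 173.9 CPM in WT and 159.2 and 149.4 CPM in Trbp-cKO, at a log2 value of -0.16 ± 0.07 (edgeR adjusted p = 0.166).

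The proton-carrying c ring is made of a single mature protein encoded by 3 genes. Atp5g3 was at 1999 and 1962 CPM in WT and 1954 and 1759 CPM in Trbp-cKO, a log2 fold change of -0.09 ± 0.07. Atp5g1 was at 68.5 and 70.1 CPM in WT and 63.1 and 60.8 CPM in Trbp-cKO, or -0.16 ± 0.07 in log2 (edgeR adjusted p = 0.206). Both were lower in both Trbp-cKO libraries and neither passed. Atp5g2 was at 0.232 to 0.775 CPM and was not tested.

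Replicates of a genotype differed by less than the genotypes did for the isoforms that rose. For most other members the larger of the 2 replicate differences exceeded that between the genotypes. The genotypes overlapped in 49 of the 82 members. Both Trbp-cKO libraries lay below WT in 29.3% of members and above in 11%, beside 27.1% and 27.5% of all genes. In 60 members the larger of the 2 replicate differences exceeded the difference between genotype means. Taking the larger favours the replicates, and this count was not made over all genes, so it is not a trait of these members. On the log2(CPM + 1) scale replicate 2 minus replicate 1 was above the 95th percentile of all genes (0.38) in WT for 2 members, Ndufb2 and Cox5b. It was below the 5th percentile (-0.37) in Trbp-cKO for 3, Ndufs5, Cox7a2l and Cox7c. Ndufs5 was -4.13 in WT and -4.01 in Trbp-cKO, and was 1 of 11 genes that differed by more than 2 in the same direction in both genotypes.

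**Figure D4:**
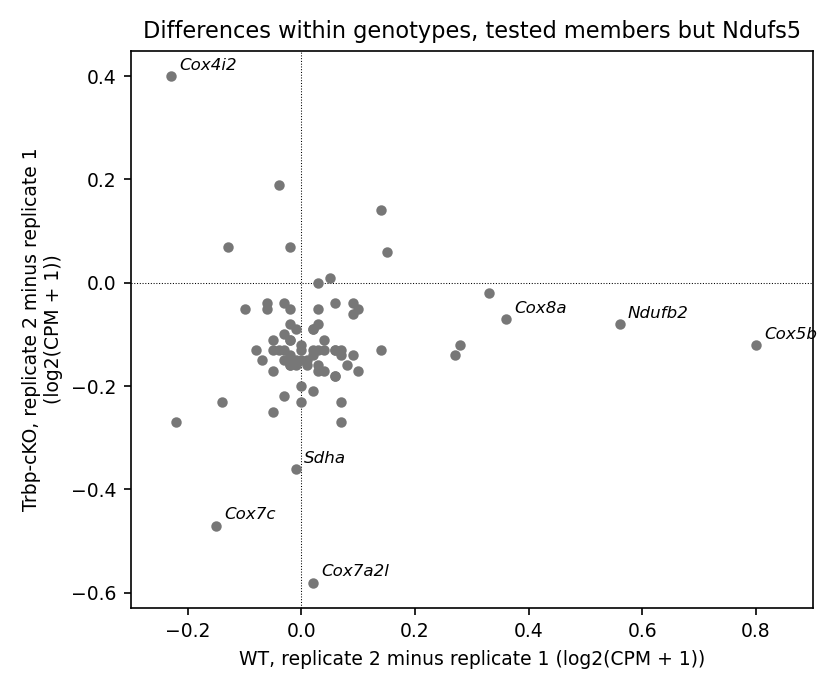
Difference between replicates, replicate 2 minus replicate 1 in log2(CPM + 1), in WT (horizontal axis) and Trbp-cKO (vertical axis), 1 point per tested member, with Ndufs5 (-4.13, -4.01) left out for scale. Cox5b, Ndufb2 and Cox8a lie to the right of the other labelled points, and Cox7c and Cox7a2l at the bottom.

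Among genes that help assemble the complexes, those called were all lower. Of 32 tested assembly genes of complexes II to V, 6, or 18.8%, fell, beside 4.2% of all genes called lower, and 0 rose by edgeR. They were Cox18, Cox19, Coa3, Sco2, Taco1 and Sdhaf4, and the median of the list was -0.18. Cox18, a membrane insertase for the Cox2 protein of complex IV, was at 12.0 and 14.5 CPM in WT and 6.43 and 6.20 CPM in Trbp-cKO, at -1.07 ± 0.17 on the log2 scale (edgeR adjusted p = 0.00510). Cox19, linked to copper delivery to complex IV, was at 40.2 and 39.4 CPM in WT and 28.5 and 29.1 CPM in Trbp-cKO, at -0.47 ± 0.09 (edgeR adjusted p = 0.0101). Both genes were lower by more than their replicates differed. The Cox18 call was lost without WT replicate 2 (edgeR adjusted p = 0.0657), and that of Cox19 without WT replicate 2 (0.0819), likewise without WT replicate 1, and with DESeq2 (adjusted p = 0.0698). Of 14 complex I assembly genes 1, or 7.14%, fell, beside 4.2% of all genes, and the median of that list was -0.14. The gene was Timmdc1, at -0.37 ± 0.10 (edgeR adjusted p = 0.0434). This call was lost without any 1 library (edgeR adjusted p from 0.0884 to 0.265), with summed transcripts (0.0629) and with DESeq2 (adjusted p = 0.260).

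The mitochondrial ribosome, which translates the subunits encoded by mitochondrial DNA, had 10 of 77 tested genes called lower, or 13%, beside 4.2% of all genes, and 0 higher. In that list 66 of 77 log2 fold changes were negative, beside 50% of all genes, and the median was -0.15. Over this and the other mitochondrial lists together, the 19 genes called lower became 3 with DESeq2, 2 when either WT library was left out and 4 when Trbp-cKO replicate 2 was. Mrps34 was at 58.1 and 59.9 CPM in WT and 41.9 and 41.7 CPM in Trbp-cKO, at -0.50 ± 0.08 (edgeR adjusted p = 0.00476). Mrpl41 was at 52.8 and 52.8 CPM in WT and 41.4 and 38.5 CPM in Trbp-cKO, at -0.40 ± 0.08 (edgeR adjusted p = 0.0163). Neither was called without WT replicate 1 (edgeR adjusted p = 0.0563 and 0.126) or WT replicate 2 (0.0580 and 0.110), nor Mrpl41 without Trbp-cKO replicate 2 (0.0515) or with DESeq2 (adjusted p = 0.0903). Of 75 cytosolic ribosome genes 3, or 4%, were called, beside 9.37% of all genes called in either direction. Rplp0 was higher and Rplp1 and Rps4l lower. The median of that list was 0.00, with log2 fold changes from -1.60 to 1.60. The Rplp0 and Rplp1 calls ended when WT replicate 1 (edgeR adjusted p = 0.0937 and 0.126) or WT replicate 2 (0.0752 and 0.0829) was left out. The subunits encoded by mitochondrial DNA are not used here.

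Calls among electron carriers were in ubiquinone synthesis, and enzymes that feed the chain gave none by edgeR. Of 13 tested genes for cytochrome c, ubiquinone synthesis and electron transfer flavoprotein, 2 fell, or 15.4%, beside 4.2% of all genes. Coq5, a methyltransferase, was at -0.40 ± 0.08 (edgeR adjusted p = 0.0126) and Pdss1, of the side chain synthase, at -0.53 ± 0.10 (edgeR adjusted p = 0.0134). Both calls were lost without WT replicate 1 (edgeR adjusted p = 0.152 and 0.108) or WT replicate 2 (0.122 and 0.124), and that of Pdss1 without Trbp-cKO replicate 2 (0.0524) or with DESeq2 (adjusted p = 0.107). Of 16 pyruvate dehydrogenase and citric acid cycle genes 0 were called by edgeR, with 1 at an unadjusted p under 0.05 (Idh3g, 0.25 ± 0.08) and a median of -0.03. The subunits outside the symbol rule (Ndufab1, Cyc1 and Usmg5) and Atpif1, the inhibitor of ATP synthase, also gave 0 calls by edgeR, with 2 at an unadjusted p under 0.05 and values from -0.36 to 0.16.

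Known regulators of mitochondrial genes gave 1 call among 18, or 5.56%, beside 9.37% of all genes. In this list 13 of 18 log2 fold changes were negative and the median was -0.12. The gene called was Peo1, the helicase of mitochondrial DNA replication now named Twnk, at 43.4 and 43.2 CPM in WT and 55.6 and 52.8 CPM in Trbp-cKO. Its log2 fold change was 0.32 ± 0.08 (edgeR adjusted p = 0.0337). The call was lost with total count scaling (edgeR adjusted p = 0.0561), summed transcripts (0.0544), without WT replicate 1 (0.181), WT replicate 2 (0.178) or Trbp-cKO replicate 1 (0.112), and with DESeq2 (adjusted p = 0.243). Nrf1, Gabpa and Esrra, which encode factors for the motifs given above and were named after their values were seen, had log2 fold changes of 0.17 ± 0.11, 0.12 ± 0.07 and 0.03 ± 0.06 (edgeR adjusted p from 0.326 to 0.837). Of the other genes for such factors, Yy1 was at -0.14 ± 0.10, Gabpb1 at -0.25 ± 0.12, Esrrg at -0.12 ± 0.08 and Esrrb at -0.18 ± 0.15, and none passed (edgeR adjusted p from 0.230 to 0.502). Ppargc1a, a coactivator of mitochondrial genes that was also named after its values were seen, was at 374.5 and 246.7 CPM in WT and 227.8 and 212.8 CPM in Trbp-cKO. WT replicate 1 alone was high, and -0.50 ± 0.25 did not pass (edgeR adjusted p = 0.364).

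Among 8 genes of energy exchange between mitochondria and cytosol, 1, or 12.5%, was called, beside 9.37% of all genes, and the median was 0.01. Slc25a5, the ADP/ATP carrier made in most tissues, was at 243.9 and 242.2 CPM in WT and 333.8 and 296.9 CPM in Trbp-cKO, at 0.38 ± 0.08 (edgeR adjusted p = 0.0162). Leaving out WT replicate 1 (edgeR adjusted p = 0.165) or WT replicate 2 (0.191) ended this call. Slc25a4, its heart and muscle counterpart, named after its values were seen, was at 7089 and 6884 CPM in WT and 7406 and 6978 CPM in Trbp-cKO, with overlap and a log2 fold change of 0.04 ± 0.06.

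**Figure D5:**
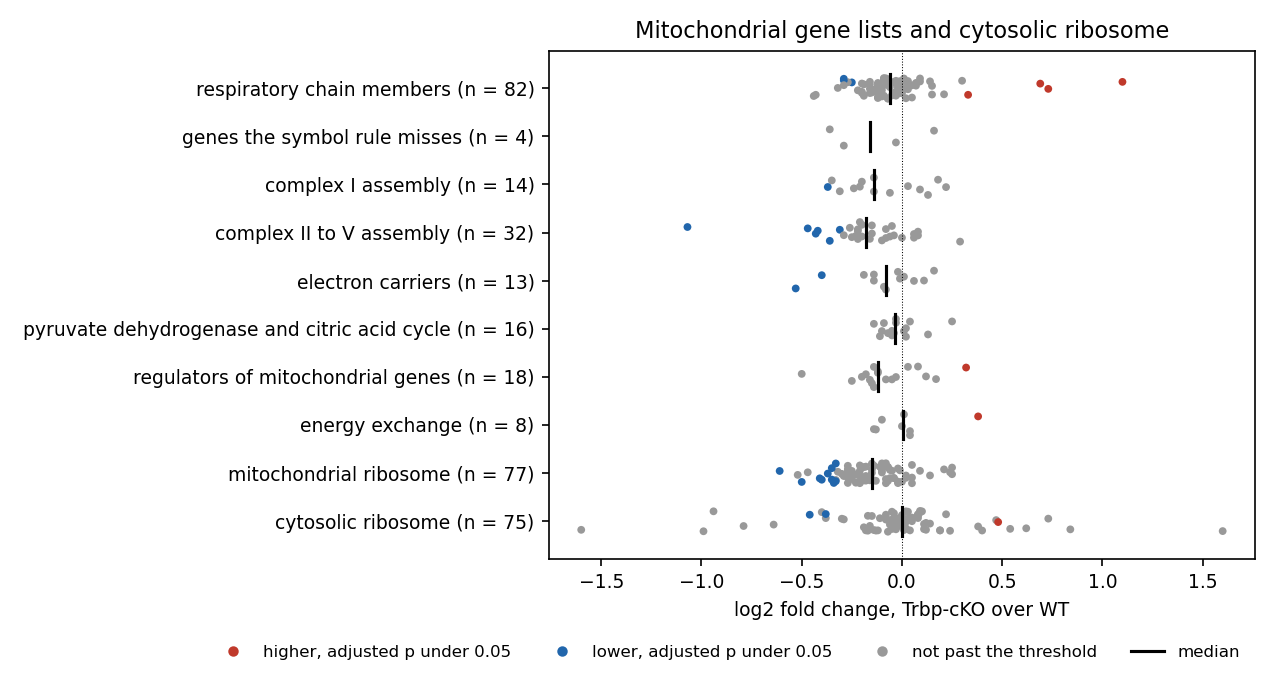
Log2 fold change, Trbp-cKO over WT, of each tested gene of the respiratory chain and of 9 other gene lists (vertical scatter within a row is for legibility only), with the median of each list as a bar and called genes in colour. The median is -0.06 for the respiratory chain members, -0.18 for the assembly genes of complexes II to V and -0.15 for the mitochondrial ribosome.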

How the data were processed

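For the 4 mRNA libraries the deposited values are raw counts, 1 row per RefSeq transcript, as their whole numbers and unequal totals show. Per the file headers, the authors added a ratio, a p-value and a q-value to each row, and these entered no test here. Tools named in the submitters' processing notes are Bowtie 0.12.9, SAMtools 0.1.16, CASAVA 1.8.2, edgeR and cutadapt 0.9.5, and the build is mm10. How reads were counted, by strand or when they matched several places, is not given in the sources used here. Genes that overlap another gene (28 of the 85 members) or have near-identical copies are therefore uncertain.

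Of 30635 rows, the 110 without a gene name (0.117% to 0.14% of counts) were left out, and RefSeq's table for GRCm38.p6 named 3793 with a blank symbol. The transcript with the highest total was kept per gene. Counts were tested in R 4.3.3 with edgeR 4.0.16 (filterByExpr, TMM scaling, robust quasi-likelihood F-test) over all genes, at a Benjamini-Hochberg adjusted p of 0.05; the common biological coefficient of variation was 0.103. CPM uses TMM-scaled library sizes, and SE is the log2 fold change over the square root of F. The fit was tested on simulated data. Isoform ratios used an exact permutation test over libraries. Alternatives were DESeq2 1.42.0, other scalings and filters, summed transcripts, a replicate block and each library left out. The members and lists were chosen with earlier results of these data known. Named are the called members, the isoform pairs, the Atp5g and Sdh genes, the highest, lowest and most abundant gene of each complex, and up to 2 called genes per list with the smallest p (1 where none was called). Of these, 1 gene is not reported here. Other genes, the promoters and the motifs were chosen after values were seen. Transcript lengths and protein sequences were not used here. The precision of a level is limited by its counts and by 2 libraries per genotype.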

Additional observations from a re-analysis of the deposited data

How the results depend on the processing

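Cox6a1 and Cox7a2 were called higher under all 11 alternatives, at log2 fold changes of 1.02 to 1.17 and 0.66 to 0.80. The 4 members called higher became 2 to 5 when 1 library was left out, with 2 without WT replicate 1. The 3 called lower became 0 to 6 in those fits, 1 with DESeq2 and 0 with the replicate block, where Cox7a1 (adjusted p = 0.0527), Ndufa12 (0.0552) and Ndufs8 (0.0916) missed the threshold, as did Timmdc1 (0.0646). Over all genes 1277 calls became 275 and 297 without WT replicate 1 or 2 and 988 with the block. Same-numbered libraries had correlated deviations (0.187 over 13625 genes), and the block also separates the libraries that expressed Ddx3y from those that expressed Xist. The main fit held genotype only, which leaves that split within its spread among libraries. With 2 pairs, the block is given as an alternative only. The isoform ratios kept their direction in each setting, at -0.71 to -0.82, -0.98 to -1.06 and -0.54 to -0.88 with 1 library left out, and in the replicate block at -0.77, -1.02 and -0.71 (exact p = 0.5, the smallest possible). In the other mitochondrial lists the 2 called higher became 1 with total count scaling, summed transcripts or DESeq2 and 0 to 7 with a library left out. The 19 called lower became 11 with summed transcripts, 3 with DESeq2 and 2 to 17 with a library left out; the cause was not tested. Of 461 values for 42 named genes, 382 kept direction and side of the threshold, 56 lost a call and 9 gained one, and 14 changed sign, none of them of a called gene. With 1 library left out, the log2 fold changes that did so ran from -0.43 to 0.02 for Cox4i2, -0.78 to 0.01 for Cox5b, -0.06 to 0.03 for Cox8b, -0.13 to 0.01 for Ndufa4l2, -0.02 to 0.33 for Ndufb4, -0.17 to 0.19 for Sdha, -0.12 to 0.13 for Sdhb, -0.03 to 0.13 for Sdhc and -0.05 to 0.10 for Uqcrc1. With total count scaling, which moved the median of all genes to -0.04, Sdha was at -0.02, Sdhb at -0.04 and Uqcrc1 at -0.01, and Sdhb was at -0.01 at a mean of at least 5 CPM.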
